A study of Rattus norvegicus with 6 samples.

Results

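The mRNAs described here encode 39 enzymes of amino acid and one-carbon catabolism in the liver. They were chosen by name from 33022 loci of the deposited table, and each of the 39 symbols was found on 1 locus. Of these, 37 averaged 1 FPKM or more across the 6 libraries and were compared, among 10201 loci that did so. Sds and Gnmt did not pass that filter. Each gradient fraction and the total RNA was measured once per diet, so no value has a replicate and no test of a diet effect can be made.

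Liver was taken from male obesity-prone Sprague Dawley rats (160 to 190 g at the start) fed either a control diet (CD) or a Western diet (WD), which held more saturated fat, for 2 weeks. As the study lists it, the WD also held more sucrose, added cholesterol, and less protein and total carbohydrate as a share of energy. These components cannot be told apart here. After an overnight fast the rats were refed their own diet for a short time in the morning, as the study describes for this cohort. RNA of 3 rats per diet was pooled into 1 library each of total RNA, of a light gradient fraction (up to 3 ribosomes per mRNA) and of a heavy one (from 4 ribosomes), which gives 6 libraries. Rat age was not given in the sources used here, and a pool hides the spread among its rats.

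The liver is the main site at which amino acids in excess of need are broken down. Their nitrogen is passed on by aminotransferases and ends in urea, and their carbon skeletons enter glucose, ketone or energy metabolism. One-carbon units are released from serine, glycine, histidine and choline along the way. They are carried by folate or by S-adenosylmethionine, and the homocysteine left after methyl transfer is either remethylated or passed through transsulfuration to cysteine and taurine. Many of these enzymes are known to respond to protein intake, glucagon, insulin and glucocorticoids, and several are made mainly in periportal or mainly in pericentral hepatocytes.

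The deposited values are FPKM, fragment numbers scaled by transcript length and by library, so that levels can be compared between genes. For 30 of the 37 mRNAs, whole fragment numbers were inferred by comparing values between libraries, with a median of 735 fragments per mRNA over the 6 libraries. Where they could be inferred, a 95% confidence interval of a ratio is given (exact Clopper-Pearson, or for ribosome density a conditional odds ratio). It rests on the inferred numbers. It covers counting error only and compares the libraries, not the diets. The lower and upper bounds that the software itself deposited are much wider: the upper bound was between 1.75 and 4.22 times the value. No mRNA of the list had bounds that did not overlap between CD and WD in total RNA, in the light fraction or in the heavy fraction. The FPKM sum over loci with a symbol lay between 616030 and 866676, highest in the WD light fraction. Rescaling each library to the same sum multiplied the WD over CD ratio by 1.07 in total RNA, by 0.783 in the light fraction, by 0.983 in the heavy fraction and by 1.26 for ribosome density. Interval calls are given on both scales, and the rescaled ones were added after the data had been seen.

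Hepatocyte markers were abundant in every library, with Alb between 24966 and 97448 FPKM, while the adipocyte markers Adipoq and Plin1 and the bile duct marker Krt7 were listed at 0 throughout. In total RNA, the summed level of 6 Kupffer cell and macrophage markers was 57.8 FPKM (CD) and 73.6 FPKM (WD), that of 3 endothelial markers was 35.6 and 46.5 FPKM, and that of 4 stellate cell and fibroblast markers was 40.9 and 50.4 FPKM. Lymphocyte markers summed to 3.06 and 3.08 FPKM and cholangiocyte markers to 0.694 and 4.35 FPKM. The sum of the adipocyte list, all of it from Cidec, was 16.3 and 16.4 FPKM. Blood markers summed to 412 FPKM in the WD light fraction and to at most 51.7 FPKM in each of the other libraries. Their part in the light fraction values below was not tested. In pooled tissue, fewer cells of a type and less RNA per cell cannot be told apart.

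As a group the mRNAs were highly expressed. Their median level in total RNA was 71.0 FPKM (CD) and 72.9 FPKM (WD), compared with 6.36 and 6.40 FPKM for the 10201 loci compared. They contributed 0.562% (CD) and 0.615% (WD) of the FPKM sum of all loci with a symbol in total RNA, and 0.915% and 0.949% in the heavy fraction. In the light fraction they contributed 0.489% and 0.388%.

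The most abundant mRNA was Cdo1 (chromosome 18 of Rnor_6.0, 40701983 to 40716686), which encodes cysteine dioxygenase, the entry step from cysteine to taurine. It was at 513 FPKM (CD) and 617 FPKM (WD) in total RNA, 996 and 971 FPKM in the light fraction, and 1371 and 1413 FPKM in the heavy fraction. Hpd, Bhmt, Mat1a and Tat followed in CD total RNA at 486, 299, 220 and 206 FPKM. At the low end were Amt, Shmt1 and Sdsl, at 5.19, 3.32 and 2.23 FPKM. Hpd was at 486 and 520 FPKM (CD and WD) in total RNA, 381 and 470 FPKM in the light fraction, and 408 and 487 FPKM in the heavy fraction. Mat1a, which makes S-adenosylmethionine, was at 220 and 231 FPKM, 185 and 237 FPKM, and 378 and 505 FPKM in the same order. Both were higher in WD in all 3 kinds of RNA on the deposited scale. All 36 neighbouring pairs in this order had overlapping deposited bounds, so neighbours are not told apart, and 32 of the other 36 mRNAs overlapped with Cdo1 itself.

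The remaining pair of enzymes, both usually ascribed to liver, were almost unmeasured in the table. Sds encodes serine dehydratase, and Gnmt encodes glycine N-methyltransferase, which disposes of excess methyl groups. Sds was listed at 0 in every library except the WD light fraction, at 1.06 FPKM, and Gnmt likewise at 1.41 FPKM. The deposited locus of Gnmt (chromosome 9, 16565224 to 16581078) is also that of Pex6, a peroxisomal gene, which was listed at between 9.34 and 19.5 FPKM. A listed 0 can be a failed estimate, and neither gene is interpreted further.

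**Figure D1:**
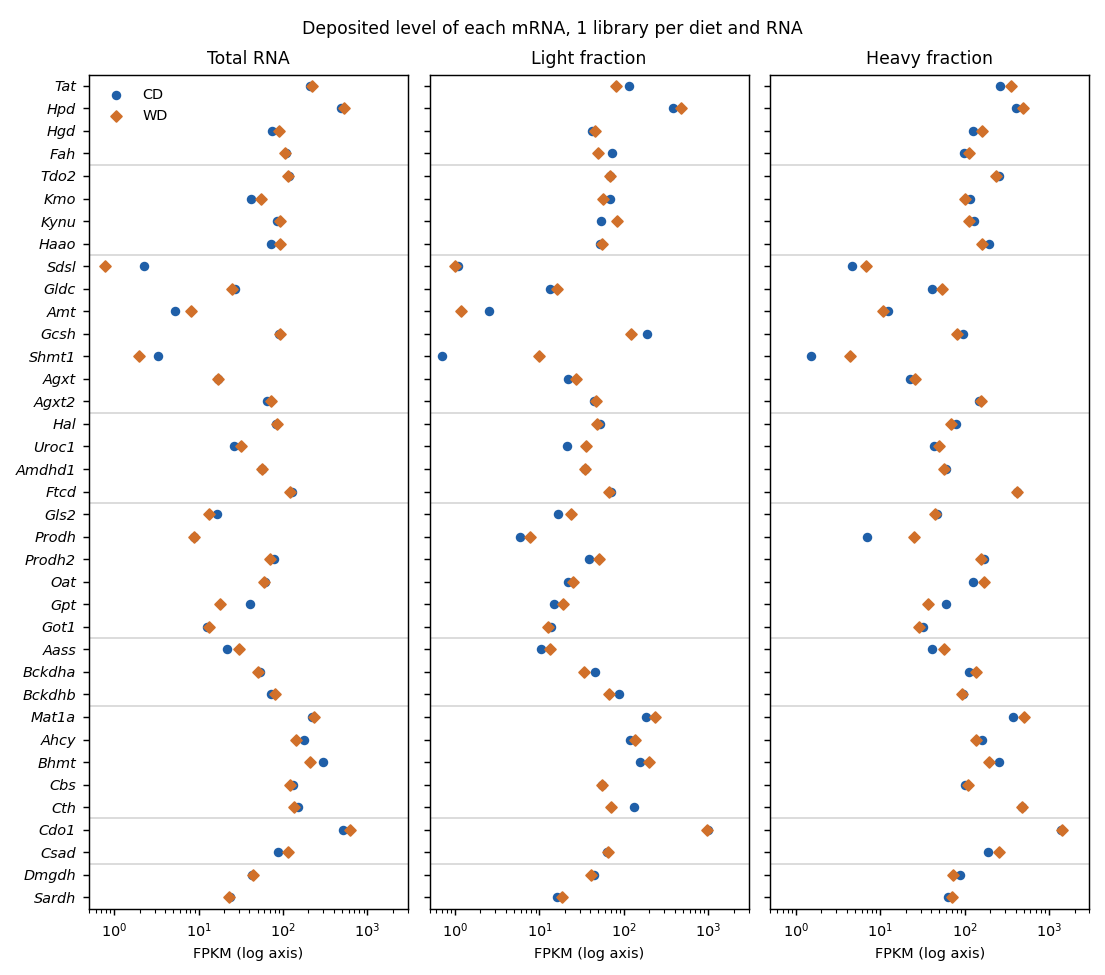
Deposited FPKM (log axis) of the 37 mRNAs compared in total RNA, the light fraction and the heavy fraction, with 1 point per library (circles CD, diamonds WD) and grey lines between the metabolic roles. Cdo1 lies furthest to the right in each panel, up to 1413 FPKM, and the CD and WD points of most mRNAs nearly coincide in total RNA.

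Relative to other loci, most of these mRNAs had higher FPKM in the heavy than in the light fraction. FPKM are scaled within each library, so the ratio does not give the share of an mRNA's copies in a fraction. The heavy to light ratio, termed ribosome density here, is read against all loci, whose median lay close to 1 on the deposited scale. In CD liver the ratio was above 1 for 36 of the 37 mRNAs, with a median of 2.36, whereas the median of all loci was 1.01. In WD liver it was above 1 for 33 of 37, with a median of 2.21 against 1.00 for all loci. A ratio of at least 1.5 was found for 29 of 37 (78.4%) in CD and 26 of 37 (70.3%) in WD. The same share among all loci compared was 32.9% in CD and 31.4% in WD. Of the 30 mRNAs with fragment numbers, the counting interval of the ratio lay above 1 for 23 in CD and 24 in WD, and for 21 in both. The share of all loci with such an interval was not computed, and intervals exclude 1 more readily with more fragments. These counts are therefore not read as a trait of the group. After rescaling to the same sum the ratio was above 1 for 36 of 37 in CD and 35 in WD.

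The order of the mRNAs by ribosome density was similar in both diets, which were measured in separate libraries. Across the 34 mRNAs with a mean of at least 10 FPKM, Pearson's r of the log2 ratios in CD and WD was 0.80 and Spearman's rho was 0.74. Across all loci at that level r was 0.45. These correlations are across genes, which are not independent replicates, and both diets share the authors' scaling.

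At the top of that order in CD was Ftcd, the bifunctional enzyme that passes the formimino group of histidine to folate. It was at 69.9 FPKM (CD) and 66.8 FPKM (WD) in the light fraction and at 414 and 415 FPKM in the heavy fraction, a ratio of 5.92 (interval 4.73 to 7.49) in CD and 6.20 (5.25 to 7.38) in WD. Oat, ornithine aminotransferase, had a ratio of 5.80 (4.00 to 8.72) in CD and 6.73 (5.24 to 8.79) in WD. Both mRNAs lay beyond the 95th percentile of all loci in both diets, at 95.4 and 97.4 for Ftcd and 95.2 and 97.9 for Oat. Amt, Prodh2 and Sdsl came next in CD, at 4.69, 4.43 and 4.02, and Amt was highest in WD, at 8.48 on few fragments. Sardh and Aass, the sarcosine dehydrogenase and the first enzyme of lysine breakdown, had ratios between 3.77 and 4.26.

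At the bottom in CD was Gcsh, the small lipoyl carrier protein of the glycine cleavage system. It was the one mRNA more abundant in the light than in the heavy fraction in both diets, at 187 against 94.6 FPKM in CD and 123 against 82.1 FPKM in WD. Its ratio was 0.506 (0.377 to 0.673) in CD and 0.670 (0.498 to 0.888) in WD. The other subunits of the same complex lay on the opposite side. Gldc, which decarboxylates glycine, had a ratio of 3.13 in CD and 3.31 in WD. Amt, which moves the methylene group to folate, had 4.69 and 8.48, on 2 light fragments per diet. Protein length was not analysed here.

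Subunits and neighbouring enzymes differed elsewhere as well. Of the branched-chain ketoacid dehydrogenase, Bckdha had a ratio of 2.46 (1.81 to 3.39) in CD and Bckdhb one of 1.09 (0.800 to 1.48), and in WD the ratios were 3.99 (3.10 to 5.18) and 1.39 (1.06 to 1.82). The intervals of these 2 subunits did not overlap in either diet. Hpd, 4-hydroxyphenylpyruvate dioxygenase, was near 1 in both diets, at 1.07 (0.930 to 1.23) and 1.04 (0.929 to 1.15). Tat, tyrosine aminotransferase, which acts just before it, was at 2.29 (1.92 to 2.73) and 4.43 (3.84 to 5.13).

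**Figure D2:**
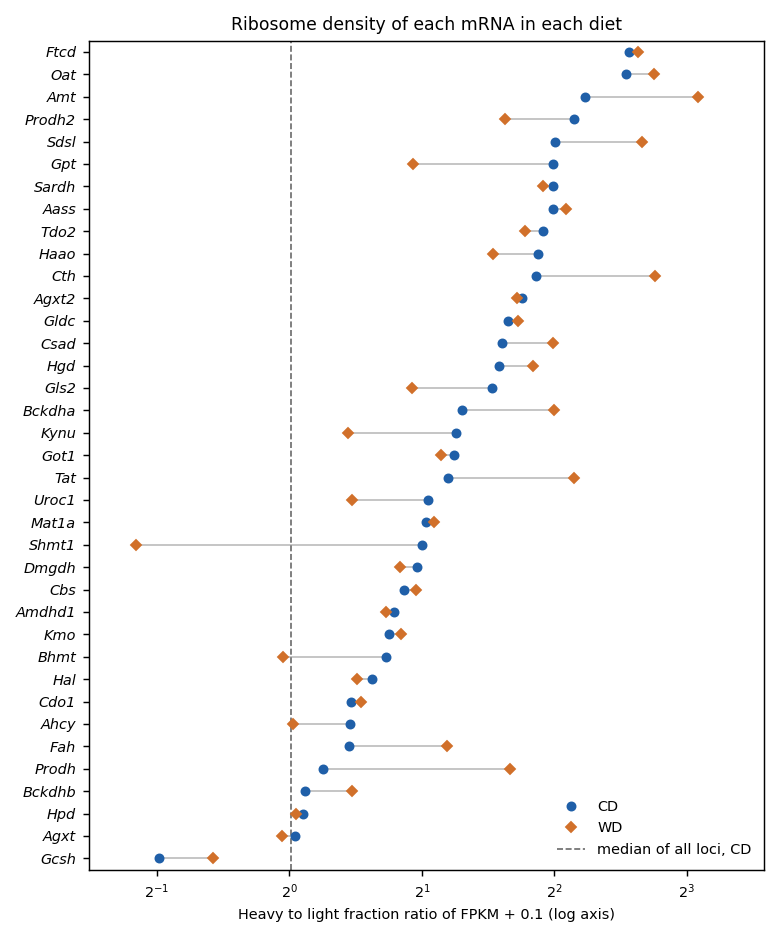
Heavy over light fraction (FPKM + 0.1, log axis) for each of the 37 mRNAs in CD (circles) and WD (diamonds), ordered by the CD ratio, with the CD median of all loci (1.01) as a dashed line. In CD all mRNAs except Gcsh lie to the right of 1, and Ftcd lies highest at 5.92.

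In total RNA, the abundance of most of these mRNAs differed little between diets. The log2 change from CD to WD, computed after adding 0.1 FPKM, had a median of 0.01 over the 37 mRNAs and of 0.02 over all loci. It was positive for 20 and negative for 17 on the deposited scale, where 51.1% of all loci had a positive change. After rescaling to the same sum it was positive for 27 and negative for 10. The median was then 0.11, against 0.12 for all loci. At least 1.5-fold higher in WD was 1 mRNA (2.70%), Amt, with 6 and 9 fragments, against 17.7% of all loci. A WD over CD ratio of at most 0.75 was found for 4 mRNAs (10.8%), against 22.7% of all loci. These were Sdsl, Gpt, Shmt1 and Bhmt. The SD of the log2 changes was 0.40 over these mRNAs and 1.60 over all loci, and it was 1.71 over the 4069 loci with 10 FPKM or more on average. Loci were not matched for level: the median of all loci compared was 6.36 FPKM in CD total RNA, against 71.0 FPKM for these mRNAs. The narrower spread and lower shares, here and in the fractions below, are therefore not read as greater stability of this group.

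Of the 27 mRNAs with fragment numbers and 10 FPKM or more on average, the counting interval lay above 1 for 2 (7.41%) and below 1 for 3 (11.1%). Among all 2954 loci of that kind the shares were 6.47% and 7.01%. An interval excludes 1 more readily with more fragments, and the loci were not matched to these mRNAs for fragment number or level. A higher share than that of loci, here or in the fractions below, is therefore not read as a trait of the group. After rescaling, the interval lay above 1 for 6 of 27 (22.2%, against 10.4% of loci), namely Tat (1.02 to 1.31), Hpd (1.03 to 1.27), Aass, Haao, Kmo and Cdo1, and below 1 for 2 (7.41%, against 4.54%), Gpt and Bhmt.

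Gpt (chromosome 7, 117759082 to 117761931) had the lowest ratio of these. It encodes alanine aminotransferase, which links alanine to pyruvate. Gpt was at 40.9 FPKM (CD) and 17.8 FPKM (WD) in total RNA, 15.0 and 19.1 FPKM in the light fraction, and 59.8 and 36.6 FPKM in the heavy fraction. The WD value was thus lower in total RNA and in the heavy fraction and higher in the light fraction. Its abundance ratio was 0.437 (0.275 to 0.676), from 72 fragments in CD and 30 in WD.

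Bhmt (chromosome 2, 23236574 to 23256158) encodes betaine-homocysteine methyltransferase, which remethylates homocysteine with betaine. It was at 299 FPKM (CD) and 211 FPKM (WD) in total RNA, with a ratio of 0.704 (0.617 to 0.803) from 569 and 383 fragments. Ahcy, which forms homocysteine by hydrolysis of S-adenosylhomocysteine, was at 175 and 143 FPKM, with a ratio of 0.820 (0.700 to 0.958). The Ahcy interval included 1 after rescaling to the same sum (0.748 to 1.02), whereas those of Gpt and Bhmt stayed below 1. The other members of the methionine cycle and transsulfuration group had smaller differences. Cth and Cbs were at 0.905 and 0.925 times the CD level and Mat1a was at 1.05 times.

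Both enzymes from cysteine to taurine had a higher level in WD. Cdo1 had 771 fragments in CD and 888 in WD, a ratio of 1.20 (1.09 to 1.33). Csad, cysteine sulfinic acid decarboxylase, was at 87.8 FPKM (CD) and 114 FPKM (WD), a ratio of 1.30 for which no fragment numbers could be inferred. Aass (chromosome 4, 50152451 to 50200328) was at 21.7 and 30.4 FPKM, with 64 and 86 fragments and a ratio of 1.40 (1.00 to 1.97) whose lower limit lies just above 1. Csad was at 62.6 and 64.6 FPKM in the light fraction and 191 and 257 FPKM in the heavy fraction, and Aass at 10.4 and 13.2 FPKM and 41.5 and 56.6 FPKM. These ratios were higher still after rescaling to the same sum, at 1.29 (1.17 to 1.42) for Cdo1 and with an interval of 1.07 to 2.11 for Aass.

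The 4 kynurenine pathway mRNAs among the 39 had intervals that included 1 on the deposited scale. Kmo, kynurenine 3-monooxygenase, was at 42.2 and 55.4 FPKM (ratio 1.31, 0.986 to 1.75). Haao, which opens the ring of 3-hydroxyanthranilate, was at 72.4 and 92.2 FPKM (1.27, 0.950 to 1.71), and Kynu, kynureninase, was at 84.0 and 91.3 FPKM (1.09, 0.865 to 1.36). Tdo2, which starts the pathway from tryptophan, was at 119 and 115 FPKM (0.971, 0.795 to 1.19). In the light fraction Kmo was at 69.3 and 56.2 FPKM and in the heavy fraction at 116 and 101 FPKM, lower in WD in both. Outside the 39, Afmid and Qprt of the same pathway were at 0.561 (0.393 to 0.789) and 0.686 (0.448 to 1.04) times the CD level. Aadat was at 0.938 times that level, and no interval could be given for it. Ido2, at 2.60 and 3.63 FPKM (1.38, 0.236 to 9.52), and Acmsd, at 0 and 1.13 FPKM, were higher in WD. The values of Ido2 and Acmsd rest on very few reads, so these genes are not read as falling together. After rescaling, the intervals of Kmo (1.05 to 1.87) and Haao (1.02 to 1.83) lay above 1.

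Most of the other abundance ratios lay closer to 1. In the tyrosine group the ratio ran from 0.981 for Fah, fumarylacetoacetase, to 1.19 for Hgd, homogentisate dioxygenase. The 4 histidine enzymes ran from 0.939 (Ftcd) to 1.22 (Uroc1, urocanase). The median log2 change was -0.11 for the 6 mRNAs of glutamine, proline, ornithine, alanine and aspartate breakdown, of which 5 were lower in WD, and Gls2, liver glutaminase, was lowest after Gpt at 16.7 and 13.2 FPKM (0.791, 0.501 to 1.23). Dmgdh and Sardh, which release one-carbon units from choline-derived glycine compounds, were at 1.01 (0.793 to 1.30) and 0.995 (0.748 to 1.32). Gls2 was at 16.4 and 23.3 FPKM in the light fraction and 47.5 and 44.3 FPKM in the heavy fraction. Among the serine, glycine and glyoxylate enzymes, Gcsh was at 89.5 and 92.7 FPKM in total RNA, Agxt, which detoxifies glyoxylate, at 16.9 and 17.0 FPKM, and Shmt1 at 3.32 and 1.98 FPKM. For most mRNAs of these groups the counting interval of abundance, where there was one, included 1 on either scale.

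**Figure D3:**
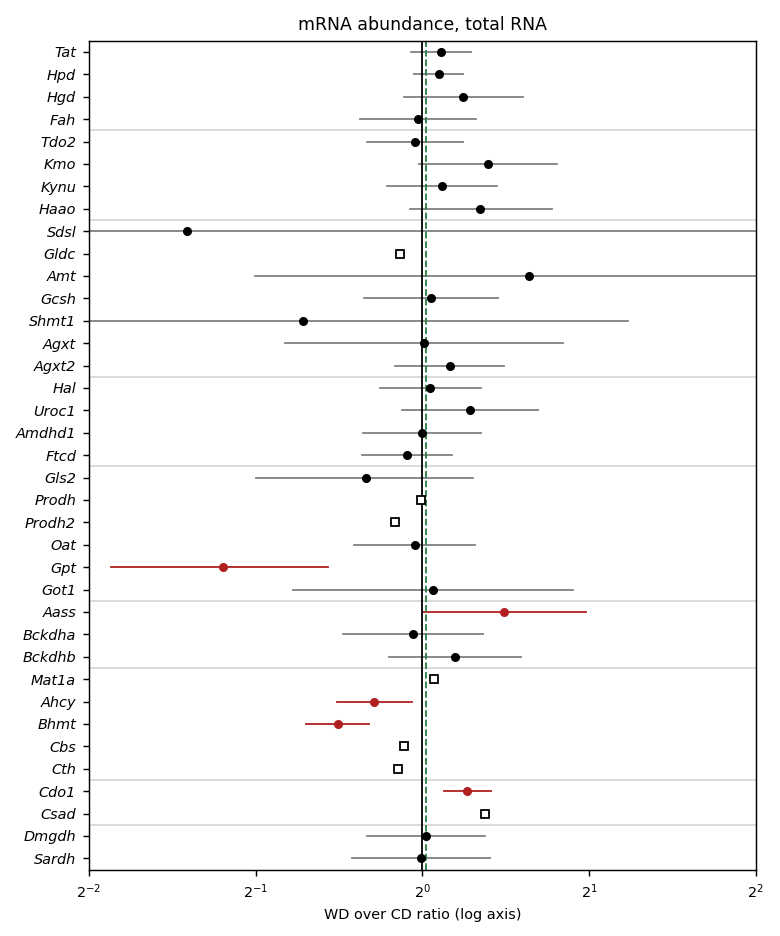
WD over CD ratio in total RNA (log axis) with its 95% counting interval, cut at the axis limits; red marks intervals that exclude 1, open squares mRNAs without fragment numbers, and the dashed line the median of all loci. Gpt, Bhmt and Ahcy lie to the left of 1, Cdo1 and Aass to the right.

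RefSeq promoter sequences (GRCr8) were held for 30 of the 39 genes. They are shown for Bhmt, which was lower in WD total RNA, and for Aass, which was higher, since both intervals excluded 1 on either scale; no promoter of Gpt or Cdo1 was used here. Each runs from 250 bases before to 50 bases after the annotated start, on the minus strand at chr2:26614380-26614679 for Bhmt and chr4:52628762-52629061 for Aass. Capitals mark TATAAA and CCAAT on either strand:
Bhmt: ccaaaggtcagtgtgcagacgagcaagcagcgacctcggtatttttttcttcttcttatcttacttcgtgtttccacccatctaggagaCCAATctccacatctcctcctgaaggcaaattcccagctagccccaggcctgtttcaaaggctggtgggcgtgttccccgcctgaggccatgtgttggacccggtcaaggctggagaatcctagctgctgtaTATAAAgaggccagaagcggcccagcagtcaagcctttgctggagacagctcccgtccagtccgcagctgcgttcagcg
Aass: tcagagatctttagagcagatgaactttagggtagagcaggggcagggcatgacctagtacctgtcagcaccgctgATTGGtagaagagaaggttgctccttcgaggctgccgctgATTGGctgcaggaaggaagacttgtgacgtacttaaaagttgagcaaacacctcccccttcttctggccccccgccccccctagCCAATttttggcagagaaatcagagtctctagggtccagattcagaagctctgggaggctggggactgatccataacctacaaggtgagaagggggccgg

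In the Bhmt promoter TATAAA began at position -29 relative to the start and CCAAT at -161. The Aass promoter held CCAAT at -50 and its reverse complement ATTGG at -134 and -174, and TATAAA was not found there. The 30 genes have 33 promoters in the table. On either strand, CCAAT was present in 22 of the 33 (66.7%), compared with 37.5% of 7903 promoters of the loci compared and 37.5% of all 33469 promoters. TATAAA was present in 5 of 33 (15.2%), those of Agxt2, Amt, Bhmt, Ftcd and Tdo2, against 6.93% and 14.2%. Neither TGACGTCA nor TTGCGCAA was found in these 33 windows; they occurred in 2.97% and 0.291% of promoters of the loci compared. A match describes letters in the window, not a bound site.

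In the light fraction the median log2 change was 0.08, with 23 mRNAs higher and 14 lower in WD, but after rescaling to the same sum it was -0.27, with 8 higher and 29 lower. The median of all loci moved with it, from 0.02 to -0.29. On the deposited scale 3 mRNAs (8.11%) were at least 1.5-fold higher and 6 (16.2%) were at a ratio of at most 0.75, against 25.9% and 26.8% of all loci. After rescaling these counts were 1 and 13 of 37, when 17.4% and 44.1% of all loci met the same thresholds. The counting interval lay above 1 for 4 of the 27 mRNAs (Hpd, Kynu, Uroc1 and Bhmt) and below 1 for 3 (Tat, Fah and Gcsh), compared with 13.2% and 19% of loci. After rescaling, it lay above 1 for 0 of 27, against 6.84% of loci, and below 1 for 10 (37.0%), against 35.9%. Those 10 were Tat, Fah and Gcsh together with Bckdha, Bckdhb, Hal, Ftcd, Kmo, Dmgdh and Cdo1, the last at 0.763 (0.708 to 0.823).

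Kynu was at 53.5 FPKM (CD) and 82.6 FPKM (WD) in the light fraction, with 67 and 225 fragments. In the heavy fraction it was at 128 and 112 FPKM. Uroc1 was at 26.1 and 31.8 FPKM in total RNA, 21.1 and 36.0 FPKM in the light fraction and at 43.5 and 50.0 FPKM in the heavy fraction. Both were thus higher in the light fraction of WD liver, by 1.54-fold (1.17 to 2.06) and 1.71-fold (1.26 to 2.36) on the deposited scale. Shmt1, cytosolic serine hydroxymethyltransferase, had 1 light fragment in CD and 31 in WD, a ratio of 12.6 (2.38 to 581), with 7 and 4 fragments in total RNA. Its FPKM were 0.69 and 9.88 in the light and 1.49 and 4.36 in the heavy fraction.

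In the heavy fraction the median log2 change was 0.04 (0.02 after rescaling) and that of all loci was -0.02. Prodh and Shmt1 were at least 1.5-fold higher (5.41%, against 21.7% of all loci), and Gpt alone was at a ratio of at most 0.75 (2.70%, against 25.8%). The counting interval lay above 1 for 5 of the 27 mRNAs (18.5%), namely Tat, Hpd, Hgd, Oat and Aass, against 6.16% of loci. It lay below 1 for Gpt and Bhmt (7.41%), against 8.09%. After rescaling, Tat, Hpd and Oat stayed above 1 (11.1%, against 5.42% of loci) and Gpt and Bhmt below (7.41%, against 8.77%), whereas the intervals of Hgd (0.998 to 1.58) and Aass (0.994 to 1.82) included 1.

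Prodh, proline dehydrogenase, had the largest heavy fraction ratio, at 6.93 FPKM in CD and 24.7 FPKM in WD. Its total RNA level was 8.83 and 8.77 FPKM and its light fraction level 5.81 and 7.72 FPKM. No fragment numbers could be inferred for Prodh, so its precision is given only by the deposited bounds, which overlapped. Its relative Prodh2, hydroxyproline dehydrogenase, was at 171 and 155 FPKM in the heavy fraction. Oat was at 126 and 167 FPKM in the heavy fraction (1.33, 1.09 to 1.62), 21.7 and 24.8 FPKM in the light fraction, and 60.6 and 58.7 FPKM in total RNA. Hgd was at 74.6 and 88.4 FPKM in total RNA, 42.1 and 45.0 FPKM in the light fraction, and 126 and 161 FPKM in the heavy fraction, where its ratio was 1.28 (1.02 to 1.61). Dmgdh, dimethylglycine dehydrogenase, was lowest after Gpt and Bhmt, at 87.1 and 72.4 FPKM (0.832, 0.665 to 1.04), with 43.1 and 43.8 FPKM in total RNA and 44.7 and 40.7 FPKM in the light fraction. In the heavy fraction the median log2 change was 0.30 for the 4 tyrosine enzymes, of which the interval of Fah included 1. It was -0.20 for the 4 tryptophan and kynurenine enzymes, whose intervals all included 1, and 45.1% of all loci had a positive change.

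The ribosome density change, the heavy to light ratio in WD over that in CD, had a median of 0.06 on the log2 scale, with 19 mRNAs higher and 18 lower. After rescaling to the same sum the median was 0.39, with 28 higher and 9 lower, while that of all loci went from -0.02 to 0.28. A density at least 1.5-fold higher in WD was found for 7 mRNAs (18.9%, against 27.7% of all loci) and a ratio of at most 0.75 for 8 (21.6%, against 36.1%), which became 10 and 4 after rescaling. The counting interval lay above 1 for 3 of 27 (11.1%, against 11.4% of loci) and below 1 for 4 (14.8%, against 7.79%). After rescaling it lay above 1 for 7 (25.9%, against 21.5% of loci) and below 1 for 1 (3.70%, against 3.32%), which was Bhmt.

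Tat (chromosome 19, 41675354 to 41686229), which starts tyrosine breakdown and is a classic target of glucocorticoids and glucagon, had the highest density ratio among mRNAs with fragment numbers and 10 FPKM or more on average. It was at 206 FPKM (CD) and 223 FPKM (WD) in total RNA, 116 and 80.3 FPKM in the light fraction, and 265 and 356 FPKM in the heavy fraction. The level was lower in the light and higher in the heavy fraction of WD liver. The density ratio was 1.94 (1.54 to 2.44), from 191 (CD) and 288 (WD) light and 407 and 560 heavy fragments. Abundance of Tat was at a ratio of 1.08 (0.952 to 1.22).

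Fah and Bckdha were the other mRNAs with a density interval above 1 on the deposited scale. After rescaling, those of Hpd (1.02 to 1.45), Bckdhb (1.06 to 2.43), Gcsh (1.10 to 2.52) and Cdo1 (1.19 to 1.48) lay above 1 as well. Fah (chromosome 1, 146713675 to 146736261) was at 108 and 106 FPKM in total RNA, 72.8 and 49.4 FPKM in the light fraction, and 99.1 and 113 FPKM in the heavy fraction, a density ratio of 1.67 (1.07 to 2.61). Bckdha (chromosome 1, 82423276 to 82452281) was at 52.6 and 50.7 FPKM in total RNA, 46.0 and 33.7 FPKM in the light fraction, and 113 and 135 FPKM in the heavy fraction, a ratio of 1.62 (1.07 to 2.44). On the deposited scale the total RNA intervals of Tat, Fah and Bckdha included 1. With total RNA as the denominator, the log2 changes were 0.32 for Tat, 0.21 for Fah and 0.30 for Bckdha, all under 1.5-fold. Cth, cystathionine gamma-lyase, lay in the same direction without a counting interval: it was at 482 FPKM in the heavy fraction of both diets, 133 and 71.1 FPKM in the light fraction, and 151 and 136 FPKM in total RNA. Its ratio was 1.87, its bounds overlapped, and with total RNA as denominator its log2 change was 0.15.

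In the opposite direction, Bhmt was at 155 FPKM (CD) and 201 FPKM (WD) in the light fraction and 256 and 194 FPKM in the heavy fraction. Its density ratio was 0.584 (0.460 to 0.742), and 0.734 (0.577 to 0.932) after rescaling. For Gpt the ratio was 0.480 (0.232 to 0.973), for Kynu 0.569 (0.390 to 0.826) and for Ahcy 0.741 (0.564 to 0.973), and these intervals included 1 after rescaling. Ahcy was at 117 and 135 FPKM in the light fraction and at 160 and 138 FPKM in the heavy fraction. The direction for Gpt, Bhmt and Ahcy also depended on the denominator, since the heavy fraction over total RNA gave log2 changes of 0.49, 0.11 and 0.07, the lower abundance in WD total RNA entering with the opposite sign. For Kynu it gave a value of the same sign.

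**Figure D4:**
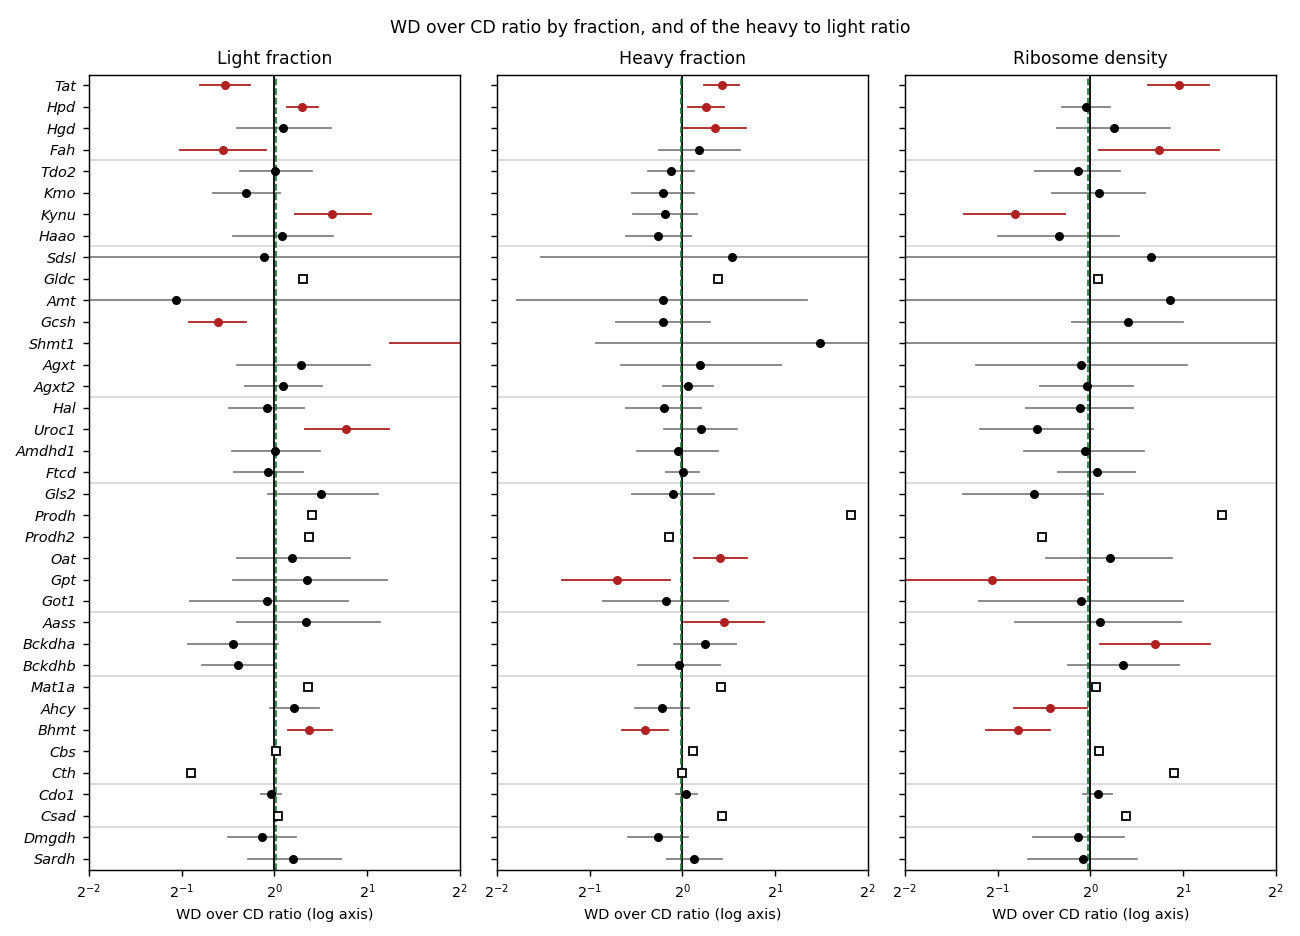
WD over CD ratio in the light fraction, in the heavy fraction and of the heavy to light ratio (log axes), with symbols as in the abundance plot and intervals cut at the axis limits. Tat lies left of 1 in the light and right of 1 in the heavy fraction, Bhmt the reverse, and the light fraction ratio of Shmt1 (12.6) lies beyond the right edge.

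A further 64 symbols of amino acid and one-carbon metabolism outside the 39 were examined, of which 59 were found and 57 averaged 1 FPKM or more. In total RNA 4 of the 57 were at least 1.5-fold higher in WD and 7 were at a ratio of at most 0.75, with a median log2 change of 0.06. The shares of all loci were 17.7% and 22.7%. For ribosome density 9 of the 57 were higher and 18 lower by these thresholds, against 27.7% and 36.1% of all loci, with a median of -0.11. Their heavy to light ratio had a median of 1.89 in CD and 1.76 in WD. It was above 1 for 48 of 57 in both diets, against 50.2% (CD) and 48.5% (WD) of all loci. Among those with a mean of at least 10 FPKM, Acad8, isobutyryl-CoA dehydrogenase of valine breakdown, had the highest abundance ratio, at 5.07 and 15.0 FPKM. It rested on 6 fragments in CD and 17 in WD, with a ratio of 2.92 (1.11 to 9.18). Afmid, which acts between Tdo2 and Kmo, had the lowest, at 37.5 and 21.0 FPKM.

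Markers of hepatocyte position other than the enzymes themselves were summed as well. The periportal markers Cyp2f4, Pck1, Ass1, Cps1 and Arg1 summed to 983 FPKM (CD) and 943 FPKM (WD) in total RNA, and 7 pericentral markers to 336 and 383 FPKM. The markers of a list did not all move together. In total RNA 2 of the 5 periportal markers and 4 of the 6 pericentral markers that averaged 1 FPKM or more were higher in WD. The pericentral Cyp1a2 was at 185 and 241 FPKM, and Glul at 135 and 119 FPKM. In the light fraction the periportal sum was 609 and 819 FPKM, with all 5 markers higher in WD, and the pericentral sum was 248 and 243 FPKM. After rescaling, 3 of the 5 periportal markers were higher, and the ratio of their sums went from 1.35 to 1.05. In the heavy fraction the sums were 1292 and 1275 FPKM, and 274 and 252 FPKM. The part of cell position in the values above was not tested.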

How the data were processed

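Libraries were depleted of ribosomal RNA. The submitters' processing notes name TopHat, Cufflinks, Cuffnorm and the build Rnor_6.0, and the authors deposited FPKM values per locus with a lower and an upper bound. The annotation is not given in the sources used here. Columns were matched to samples by title. The last letter of the title was read as light (L) or heavy (H) fraction, which no other label gives. T was read as total RNA from the sample description.

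Analyses used Python 3.11.15, numpy 2.4.6, pandas 2.3.3, scipy 1.17.1 and matplotlib 3.10.9. Loci with a symbol and no failed estimate that averaged 1 FPKM or more were compared, and 0.1 FPKM was added before each log2 ratio. Thresholds of 1.5 and 0.75 are those the study set for the ribosome density of CD over WD; here they were applied to WD over CD, and also, unlike in the study, to total, light and heavy RNA. Each gene's values were searched for whole fragment numbers (up to 2500, within 0.05 of a fragment) given a common factor for each library. The search was also run on simulated data, built under that same assumption from loci it had already resolved. Such a run cannot show how often the numbers inferred for real loci are wrong. Per-library depth in loci with such numbers ranged from 285494 to 595491 fragments. The study's own differential expression software was not rerun; no group has a replicate, so no test was made. Alternatives were other pseudocounts, filters, scales and denominators. Members and lists were chosen with earlier results of these data known. Members with the 3 highest or lowest changes of a contrast, the 5 highest levels or an interval excluding 1 are given in full.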

Additional observations from a re-analysis of the deposited data

Results flagged for a closer look

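Tat and Bhmt were singled out because their WD over CD change ran in opposite directions in the light and heavy fractions, with both counting intervals excluding 1. For Tat, the log2 change in the heavy fraction minus that in the light fraction was 0.95. For Bhmt it was -0.78. With 1 library per group the difference between the fractions was not tested against replicate error. After rescaling to the same sum the light fraction interval of Bhmt included 1 (0.864 to 1.20), while that of Tat stayed below 1 (0.450 to 0.655).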

How the results depend on the processing

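No paired analysis was possible because each group has 1 library. Of 106 group values under an alternative, 86 stayed within their limits (1.5-fold for a count, the binomial interval of a median). Rescaling to the same sum moved the median log2 change to 0.11 (total RNA), -0.27 (light) and 0.39 (ribosome density). The medians of all loci were then 0.12, -0.29 and 0.28. Rescaling also moved the number at least 1.5-fold higher to 1 (light) and the number at most at 0.75 to 13 (light), 2 (heavy) and 4 (density). Of all loci, 17.4% were then at least 1.5-fold higher (light), and 44.1%, 26.6% and 27.2% were at most at 0.75. Intervals excluding 1 in total RNA went from 5 to 8, and this last setting was chosen after seeing the data. With a mean of at least 10 FPKM, 0 mRNAs in total RNA and 1 in the heavy fraction were at least 1.5-fold higher and 2 in total RNA were at most at 0.75. No filter gave 5 higher in the light fraction, and a pseudocount of 1 FPKM gave 0 higher in total RNA. A limit of 1/1.5 left 3 lower (light) and 5 lower (density). The deposited bounds gave 0 differences in each of total, light and heavy RNA. With the heavy fraction over total RNA, 3 mRNAs were higher and 3 lower in density, and the log2 change reversed for Gls2 (0.24), Prodh2 (0.020), Amt (-0.84), Shmt1 (2.204), Gpt (0.49), Bhmt (0.11) and Ahcy (0.067). The cause was not tested. Amt, Shmt1 and Sdsl rest on few fragments.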
